A study of Mus musculus with 3 samples.

Results

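Natural killer (NK) cells and subsets of T cells carry receptors that read MHC class I molecules and stress ligands on neighbouring cells, and 10 genes for such receptors were followed here in single-cell RNA sequencing of the mouse brain after stroke. The members were Ncr1, Klrb1c, Klre1, Klrd1, Klrk1, Klrc1, Klrc2, Klra4, Klra7 and Klra8, taken by symbol from the 31053 genes of the deposited UMI matrix, and all 10 were present. They were described in lymphoid barcodes, meaning barcodes with a UMI in at least 2 of the 8 genes Cd3d, Cd3e, Cd3g, Trac, Trbc2, Ncr1, Klre1 and Klrb1c. Of 35968 barcodes deposited, 31982 held at least 1000 UMIs with at most 30% of them mitochondrial, and 3419 of these were lymphoid. Of the 10 members, 3 are part of that rule, so their shares in lymphoid barcodes are partly set by it. The other 7 are not part of it, but it still sets which NK cells without T cell genes are included.

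The study compared healthy mice (control) with mice given ischemic stroke (IS) or hemorrhagic stroke (HS), all 10 weeks old and of the strain labelled C56BL6. IS was produced with a suture that closed the middle cerebral artery before reperfusion, and HS by injecting collagenase into the striatum. Brains of several mice were pooled into 1 library per condition, and the time between stroke and tissue collection was not given for these libraries in the sources used here. The 3 libraries are told apart in the matrix by a barcode suffix alone. Nothing among the labels or methods read here says which suffix belongs to which condition, so no value below is a value of a condition and no test between conditions was made. Intervals are exact 95% intervals (Clopper-Pearson for shares, Poisson for CPM, the UMIs of a gene scaled to the total of its group) and cover counting error only. Where no barcode held a gene, the limit given is the share that 3 barcodes would make.

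NK receptors come in pairs of opposite sign. Inhibitory members carry a tyrosine motif, the ITIM, in the cytoplasmic tail and bind MHC class I, whereas activating members lack it and signal through adaptors such as Tyrobp (DAP12) or Hcst (DAP10). Klrc1 (NKG2A) and Klrc2 (NKG2C) are the inhibitory and activating partners of Klrd1 (CD94), and read the class Ib molecule Qa-1, the product of H2-T23. Klrk1 (NKG2D) is an activating receptor for stress ligands. The Ly49 family of mice includes Klra7 (Ly49G), which is inhibitory, and Klra4 (Ly49D) and Klra8 (Ly49H), which are activating, and each NK cell transcribes only some Ly49 genes. Ncr1 (NKp46) and Klrb1c (NK1.1) are the usual surface markers of mouse NK cells, and Klre1 is a further lectin-like receptor of the same gene complex.

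In the GENCODE annotation of GRCm38, the same assembly as the mm10 build named in the submitters' processing notes, 9 members lie in 1.45 Mb of chromosome 6, chr6:128778485-130233322, and Ncr1 lies at chr7:4337724-4345164. The opposite signs of the paired members can be read at the start of their coding sequences. The first 75 coding bases from the start codon are given for 2 inhibitory and 3 activating members, with capitals for the codons that fit an ITIM.
Klra7: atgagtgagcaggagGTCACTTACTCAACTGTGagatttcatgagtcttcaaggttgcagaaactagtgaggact
Klra4: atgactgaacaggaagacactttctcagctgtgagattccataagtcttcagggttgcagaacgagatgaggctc
Klra8: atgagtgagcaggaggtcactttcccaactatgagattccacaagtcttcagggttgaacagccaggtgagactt
Klrc1: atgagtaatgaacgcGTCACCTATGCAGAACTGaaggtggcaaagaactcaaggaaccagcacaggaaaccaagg
Klrc2: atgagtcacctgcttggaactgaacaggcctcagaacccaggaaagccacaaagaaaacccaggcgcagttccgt

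These stretches lie in single exons on the minus strand at chr6:130231543-130231617 (Klra7), chr6:130065228-130065302 (Klra4), chr6:130128086-130128160 (Klra8), chr6:129678836-129678910 (Klrc1) and chr6:129660482-129660556 (Klrc2). The motif begins at base 16 in Klra7 and in Klrc1, and no codons of Klra4, Klra8 or Klrc2 fit it anywhere in the coding sequence. Klra4 differed from Klra7 at 17 of the 75 bases and Klra8 at 16, and the substitution A23T, counted from 1 at the start codon with the base of Klra7 first, is present in both and falls within the capitals. The library chemistry reads the 3′ ends of transcripts, so the counts rest on another stretch. In the last 500 bases of each transcript, 21.7% of the 90-base windows of Klrc1 also occur in Klrc2, 8.49% of those of Klrc2 occur in Klrc1 or Klrc3, and 11.4% of those of Klrb1c occur in Gm44511 or Klrb1a. The other 7 members share no such window with another gene, so Klra4, Klra7 and Klra8 can be told apart there. Klrb1c also overlaps Gm44511 on the same strand, so its counts and those of Klrc1 and Klrc2 carry some uncertainty from shared sequence.

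In the 3419 lymphoid barcodes, 1992 held a UMI of at least 1 member (58.3%, 56.6 to 59.9%). Klrd1 was found in 1348 of them (39.4%) and Klrk1 in 1324 (38.7%), followed by Klrc1 in 714 (20.9%), Klre1 in 604 (17.7%), Klrb1c in 443 (11.8 to 14.1%) and Klrc2 in 371 (10.9%). Ncr1 was found in 298 (8.72%), Klra7 in 270 (7.90%), Klra4 in 176 (5.15%) and Klra8 in 165 (4.83%). The intervals of 4 pairs of neighbours in this order overlapped, namely Klrd1 with Klrk1, Klrb1c with Klrc2, Ncr1 with Klra7 and Klra4 with Klra8. Among the 7 members that the lymphoid rule does not use, 2 or more were found together in 1241 barcodes (36.3%, 34.7 to 37.9%). Lymphoid barcodes held a median of 5092 UMIs, and 282 of them (8.25%) were called doublets. The libraries shared 110 barcode sequences, 24 of which were lymphoid in 1 library and none in more than 1.

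The members fell into separate patterns when lymphoid barcodes were ordered by how many of the 5 CD3 and T cell receptor genes they held. Klra4 was found in 45.3% of the 192 barcodes with none of these genes and in 0.07% of the 1501 with all 5, and Klra8 in 42.7% and 0.07%. Klra7 went from 43.2% to 4.33%, so that it remained in a small share of barcodes with a full set of T cell genes. Klrd1 and Klrk1 stood at 84.9% and 85.9% with none of the genes, fell to 23.8% and 23.2% at 3, and were at 38.7% and 34.3% with all 5. Klrc1 followed a similar course at a lower level, at 29.7% with none, 38.6% with 1, 11.2% with 3 and 22.3% with all 5. Median depth differed along the order, at 6251 UMIs with none, 3345.5 with 2, 3842.5 with 3 and 5556 with all 5. In CPM, Klrk1 stood at 411 with none, 109 with 3 and 130 with all 5, and Klrd1 at 540, 82.9 and 134. The part of depth in the course of the shares was not tested. Barcodes with none of the 5 genes entered through at least 2 of Ncr1, Klrb1c and Klre1 by construction. Those with 1 of the 5 genes needed at least 1 of these 3 members. The decline of the 3 members across the order is therefore set by the rule and is not a result. The low end of the order was selected by NK receptor genes, which also sets part of the fall of the other members from it.

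**Figure D1:**
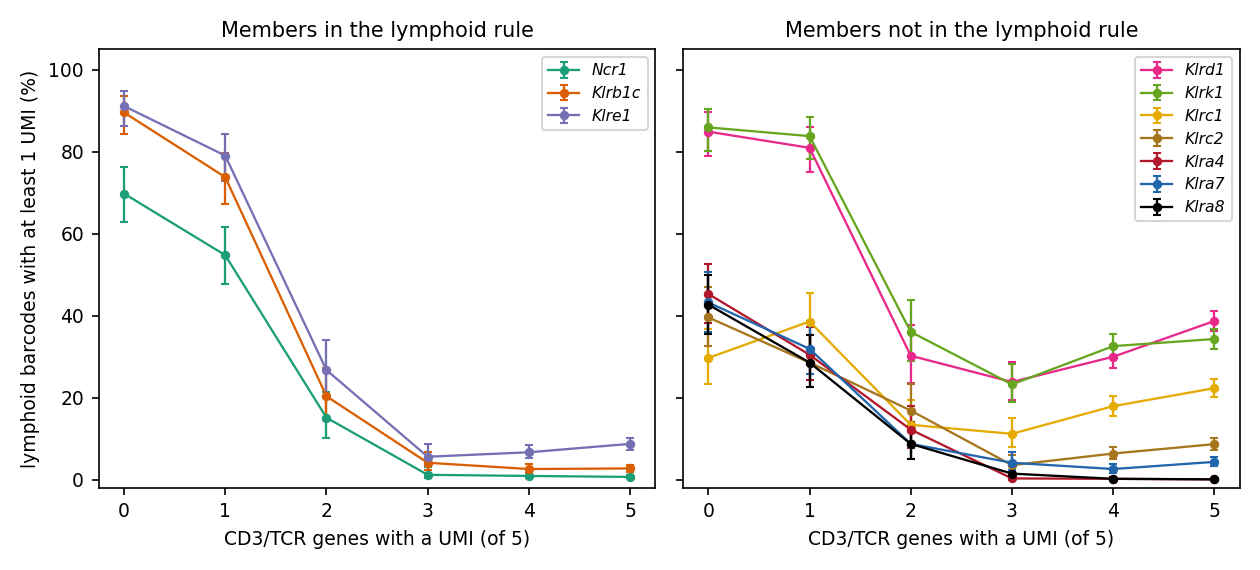
Share of lymphoid barcodes with at least 1 UMI of each member (vertical axis, percent) against the number of the 5 genes Cd3d, Cd3e, Cd3g, Trac and Trbc2 with a UMI (horizontal axis), for members in the lymphoid rule (left) and not in it (right), with exact 95% intervals as bars. Klra4 and Klra8 drop from over 40% to 0.07%, whereas Klrd1, Klrk1 and Klrc1 stay above 20% at 5 genes. Depth is not equal along the horizontal axis, with a median of 6251 UMIs at no gene and 3345.5 at 2. Barcodes at no gene or 1 gene entered the rule only with Ncr1, Klrb1c or Klre1, which sets part of the fall.

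Lymphoid barcodes were then clustered with all Klr genes and Ncr1 left out, and clusters were named from markers that include no member. NK-like clusters (numbers 6, 8 and 13) held 379 barcodes with a median of 5755 UMIs, and T-like clusters (0, 1, 2, 4, 11 and 17) held 1895 with a median of 4585 UMIs. Of the 10 NK markers, 9 were found in at least 25% of NK-like barcodes, and their summed level was 12616 CPM against 2380 CPM in T-like barcodes, whereas the summed T cell markers stood at 563 and 5275 CPM. By cluster, 9 of the NK markers reached 25% in clusters 6 and 8 but only 6 in cluster 13, as many as in unnamed cluster 7. The NK-like name of cluster 13 is therefore less certain, and its 84 barcodes are part of all NK-like values. Microglial markers summed to 435 CPM in NK-like and 575 CPM in T-like barcodes, with C1qa in 58.3% and 57.3%. Macrophage markers were each found in at most 0.792% of either group. The part of such RNA in the results was not tested. Neither group held a called doublet. A further 1145 lymphoid barcodes in 12 clusters stayed unnamed.

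Most NK-like barcodes held many members at once. The median was 6 of the 10 members in NK-like barcodes and 0 in T-like barcodes, counts that the 3 members of the rule partly set, and over the 7 members outside the rule it was 3 and 0. At least 5 members were found in 279 NK-like barcodes (73.6%, 68.9 to 78.0%) and in 19 T-like barcodes (0.605 to 1.56%). Of the 7 members outside the rule, at least 2 were present in 93.4% of NK-like (90.4 to 95.7%) and 24.5% of T-like barcodes (22.6 to 26.5%).

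Comparing summed counts, 7 of the 10 members were at least 4-fold higher in NK-like than in T-like barcodes on the scale of CPM plus 10, a size that 44 of 11130 genes reached (0.395%). Another 39 genes (0.35%) were at least 4-fold lower, and no member was among them. Of the 7, Ncr1, Klrb1c and Klre1 are genes of the lymphoid rule, which sets part of their difference, and the other 4, Klra4, Klra7, Klra8 and Klrd1, are not. The median fold was 17.7 over the members, those of the rule included, and 0.983 over all genes. These are descriptions of 1 pooled sample with no replicate and no test. The T-like group leaves out cluster 7, which joined CD3 genes to NK markers and stayed unnamed under a rule set after the data were seen. Its 132 barcodes held Klrd1 at 381, Klra7 at 192, Klre1 at 135 and Klrb1c at 62.1 CPM. Klra4 stood there at 2.44 CPM and Klra8 had no UMI. Folds with cluster 7 added to the T-like group were not computed, so the count of 7 members holds only without it.

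Of the surface markers, Ncr1 stood at 193 CPM in NK-like barcodes (438 UMIs) and 0.656 CPM in T-like barcodes (6 UMIs), a ratio of 294 (134 to 805). Klrb1c stood at 296 and 2.84 CPM, a ratio of 104 (70.3 to 160). Klre1 stood at 521 and 20.7 CPM, a ratio of 25.2 (21.6 to 29.5). All 3 belong to the lymphoid rule, which lets an NK cell without T cell genes enter only when it holds 2 of them.

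Between NK-like and T-like barcodes, the Ly49 members were the most restricted of those outside the rule. Klra4 was at 336 CPM in NK-like barcodes (764 UMIs, in 131 barcodes) with 2 UMIs in all T-like barcodes. Klra8 was at 245 CPM (557 UMIs, in 123 barcodes) with no UMI in 1895 T-like barcodes, which made it at least 747-fold higher when 3 UMIs over the T-like group are taken as the floor. Klra7 stood at 261 CPM (593 UMIs, in 149 barcodes) and 4.92 CPM (45 UMIs, in 18 barcodes), a ratio of 53.0 (39.1 to 73.5). Lymphoid cluster 7, which the T-like group leaves out, held Klra7 at 192 CPM (158 UMIs), so the ratio holds only without that cluster. The 1145 unnamed lymphoid barcodes, 282 of them called doublets, are in neither group. They held the remaining lymphoid barcodes with Klra4 or Klra8, so the restriction is described between the 2 named groups only. A positive NK-like barcode held on average 5.83 UMIs of Klra4, 4.53 of Klra8 and 3.98 of Klra7, a range that includes Klrd1 at 4.48. The averages were lower for Klre1 at 3.67, Ncr1 at 1.92 and Klrc2 at 1.42.

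The CD94 and NKG2 members were shared between both lymphoid groups. Klrd1 was found in 84.7% of NK-like barcodes (80.7 to 88.2%) at 634 CPM and in 30.2% of T-like barcodes (28.1 to 32.3%) at 133 CPM. Klrk1 was found in 84.7% (80.7 to 88.2%) and 30.7% (28.6 to 32.8%), at 443 and 159 CPM. Klrc1 was the member with the least difference, in 33.8% of NK-like barcodes (29.0 to 38.8%) and 17.2% of T-like barcodes (15.5 to 18.9%), at 110 and 57.9 CPM and a ratio of 1.89 (1.62 to 2.21). Its activating counterpart Klrc2 was found in 33.5% (28.8 to 38.5%) and 5.54% (4.55 to 6.67%), at 79.7 and 15.6 CPM and a ratio of 5.09 (4.07 to 6.39). After every barcode was thinned to 1000 UMIs, Klrd1 remained in 44.6% of NK-like and 9.87% of T-like barcodes, and Klra4 in 21.6% and 0%.

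**Figure D2:**
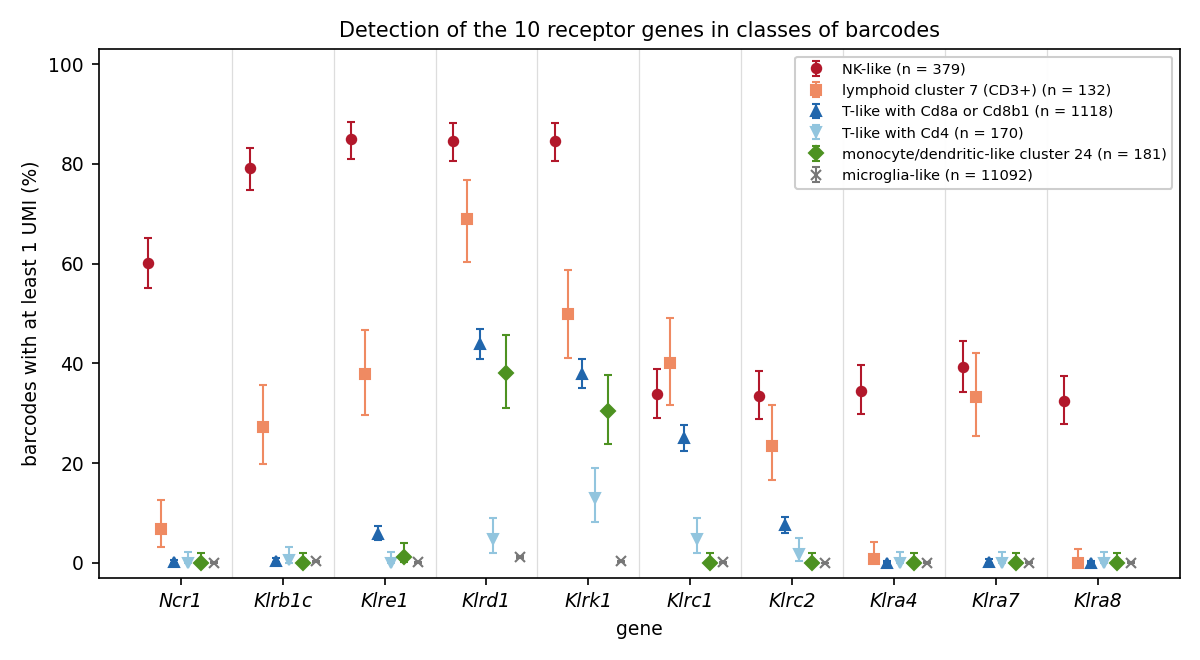
Share of barcodes with at least 1 UMI (vertical axis, percent) of each of the 10 members (horizontal axis) in 6 groups of barcodes, with exact 95% intervals. Klra4 and Klra8 are near 0 in the other groups shown, and Klra7 is also found in lymphoid cluster 7. Klrd1 and Klrk1 extend to CD8 T-like barcodes and to monocyte/dendritic-like cluster 24. Unnamed lymphoid barcodes other than cluster 7 are not shown, and some of them held Klra4 or Klra8.

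Among T-like barcodes, the shared members were found more often with Cd8a or Cd8b1 than with Cd4. T-like barcodes with neither or both of CD8 and Cd4 are outside this comparison. They too held shared members, since Klrk1 was found in 582 of 1895 T-like barcodes but in 424 CD8 and 22 Cd4 barcodes. For Klrd1 these counts were 572, 491 and 8. In the 1118 T-like barcodes with Cd8a or Cd8b1 and no Cd4, Klrd1 was found in 43.9% (41.0 to 46.9%), Klrk1 in 37.9% (35.1 to 40.8%), Klrc1 in 279 barcodes (22.4 to 27.6%) and Klrc2 in 7.51% (6.04 to 9.22%). In the 170 with Cd4 alone, the same genes were found in 4.71% (2.05 to 9.06%), 12.9% (8.29 to 18.9%), 4.71% (2.05 to 9.06%) and 1.76% (0.365 to 5.07%), with median depths of 4823 and 4649 UMIs. Ncr1, Klra4 and Klra8 together gave 1 UMI in all 1118 CD8 barcodes. Against CD8 barcodes alone, Klrd1 was 3.31-fold and Klrk1 2.21-fold higher in NK-like barcodes, so Klrd1 no longer reached 4-fold. The other 6 members above that size remained above it, and of these Ncr1, Klrb1c and Klre1 belong to the lymphoid rule. No share over all genes is given for this comparison, so the count has no background.

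Cluster 11, led by Il17a and Trdc and holding Trdc in 75.5% of its 106 barcodes, held Klrk1 with little of the other members. Klrk1 was found in 39 of them (36.8%, 27.6 to 46.7%), close to its share in CD8 barcodes, whereas Klrd1 and Klrc1 were found in 2 each, Klrb1c in 1 and the other 6 members in none, which allows a share of up to 2.83%. Cluster 17, 23 barcodes of the library with suffix 1 led by Il13 and Il5, held no UMI of any member, though its size allows shares as high as 3 of the 23 barcodes.

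Lymphoid cluster 7 joined T cell genes to NK receptors and was left unnamed for that reason. Its 132 barcodes held Cd3g in 94.7%, Trbc2 in 97.7% and Nkg7 in 96.2%, with no called doublet and a median of 5926 UMIs. Klra7 was found in 44 of them (33.3%, 25.4 to 42.1%), near its share in NK-like barcodes, but Klra4 in 1 and Klra8 in none, which allows up to 2.27%. The inhibitory Ly49 gene Klra1 (Ly49A) was found in 30.3% of these barcodes and Klra6 in 20.5%, against 14.5% and 4.7% of NK-like barcodes. Klrc1 was found in 40.2% (31.7 to 49.0%), Klrd1 in 68.9% (60.3 to 76.7%) and Ncr1 in 6.82% (3.16 to 12.6%). Cd8a was found in 29 barcodes of the cluster, Cd4 in 0.8%, Trdc in 21.2% and Zbtb16 in 3.8%. In the larger libraries Klra7 was found in 39.2% of the cluster in suffix 1 (29.7 to 49.4%) and 14.3% in suffix 2 (4.03 to 32.7%), with intervals that overlapped, and Klra8 in none of either.

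The Ly49 members were found in few barcodes of 1 of the NK-like clusters. Cluster 8, led by Gzma, and cluster 6, in which Klra4 and Ncr1 led, held Klra4 in 45.4% of 130 and 41.2% of 165 barcodes, and Klra8 in 44.6% and 37.6%, while Klra7 was found in 65 and 72 of their barcodes. In cluster 13, led by Gzmc and Klrb1b, Klra4 was found in 4 of 84 barcodes (4.76%, 1.31 to 11.8%), Klra8 in 3 (3.57%, 0.743 to 10.1%) and Klra7 in 12 (14.3%, 7.61 to 23.6%). On the scale of CPM plus 10, Klra8 was 8.59-fold and 6.41-fold higher in clusters 8 and 6 than in cluster 13. Members other than Klra4 and Klra8 lay within 2-fold between the same clusters. For Klra7 this rests on 12 barcodes of cluster 13 with on average 7.5 UMIs each, against 3.86 and 3.5 in the positive barcodes of clusters 8 and 6. None of the 6 genes Klra1, Klra3, Klra4, Klra7, Klra8 and Klra9 was found in 65.5% of cluster 13, against 10.8% of cluster 8 and 15.2% of cluster 6. Cluster 13 was not shallower, with a median of 6235.5 UMIs against 5638 and 5627. Of effector genes, Gzma was found in 89.2% of cluster 8, 66.1% of cluster 6 and 3.6% of cluster 13, and the transcription factor Eomes in 54.6%, 34.5% and 6.0%, whereas Tbx21 was found in 40.8%, 27.3% and 46.4%. Members took no part in forming these clusters, but genes such as Gzma and Eomes did, so the latter describe how the clusters were drawn.

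**Figure D3:**
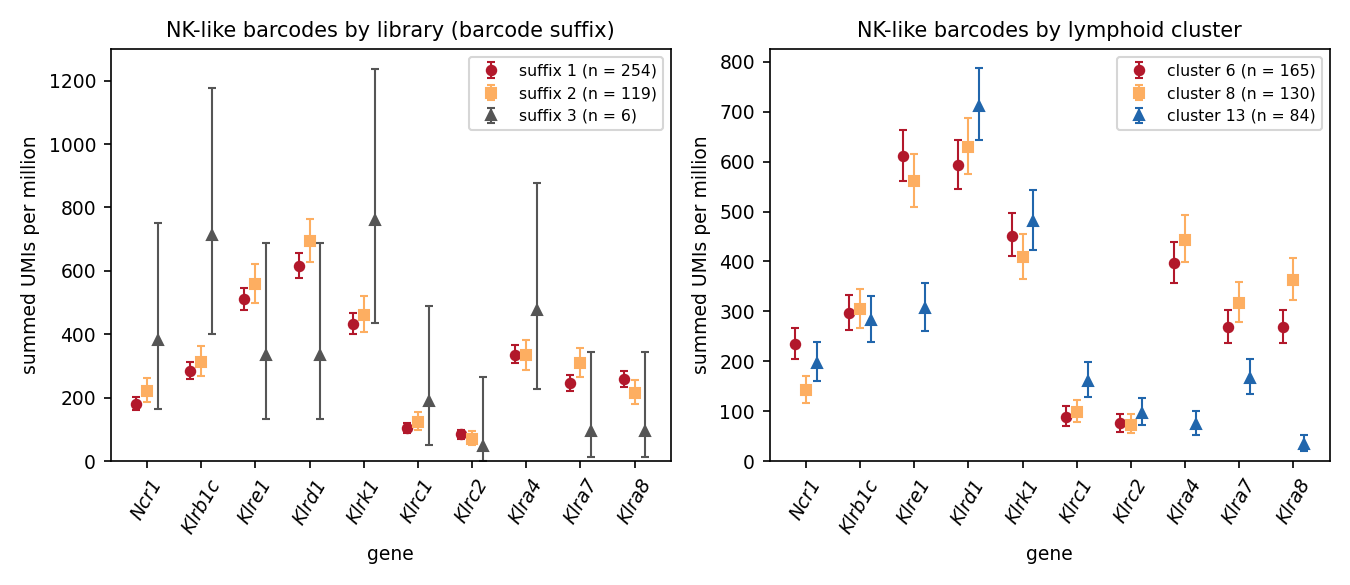
CPM from summed UMIs (vertical axes) of each member in NK-like barcodes, by library on the left and by lymphoid cluster on the right, with exact Poisson 95% intervals. Suffixes 1 and 2 give close levels for each member, suffix 3 holds 6 NK-like barcodes, and cluster 13 is lower in Klra4, Klra7, Klra8 and Klre1.

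The libraries differed in how many NK-like barcodes they held. Lymphoid barcodes made up 15.2% of kept barcodes in the library of suffix 1 (1362 of 8969), 14.7% in suffix 2 (2018 of 13769) and 0.422% in suffix 3 (39 of 9244). Of lymphoid barcodes, 254 (18.6%), 119 (5.90%) and 6 were NK-like. Accordingly, Ncr1 was found in 15.8% of the lymphoid barcodes of suffix 1 and 3.82% of suffix 2, and Klra8 in 8.22% and 2.58%. Within NK-like barcodes, Klrd1 stood at 616 and 694 CPM, Klra4 at 336 and 333 CPM and Klra8 at 258 and 216 CPM in suffixes 1 and 2. The NK-like barcodes of suffix 2 were shallower, with a median of 4799 against 6289.5 UMIs, and the 6 barcodes of suffix 3 were too few to compare.

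Which Ly49 genes occurred together was described in the NK-like barcodes. None of Klra4, Klra7 and Klra8 was found in 143 (37.7%), exactly 1 in 104 split as 53 with Klra7, 27 with Klra4 and 24 with Klra8, and all 3 in 35 (9.23%). Klra8 was found in 54.2% of the 131 barcodes with Klra4 (45.3 to 62.9%) and in 21.0% of the 248 without it (16.1 to 26.6%). The barcodes with Klra4 were not deeper, with a median of 5570 against 5816.5 UMIs. The difference was of the same direction in both libraries, at 57.3% against 22.4% in suffix 1 and 20 of 40 against 14 of 79 barcodes in suffix 2, and in clusters 6 and 8 together, at 54.3% (45.3 to 63.2%) against 30.4% (23.5 to 37.9%). For Klra4 and Klra7 it was smaller within clusters 6 and 8, at 50.4% (41.4 to 59.4%) against 43.5% (35.8 to 51.3%), with intervals that overlapped. Counting Klra1, Klra3 and Klra9 as well, 285 of the NK-like barcodes held at least 1 of 6 Ly49 genes, at most 4 in all but 2 of them.

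Promoter sequences of the 3 Ly49 members were compared. RefSeq windows of GRCm38.p6 at 1 start per gene, from 250 bases before to 50 bases after each gene start, are given for Klra4 at chr6:130067222-130067521, Klra8 at chr6:130129849-130130148 and Klra7 at chr6:130233273-130233572, all on the minus strand.
Klra4: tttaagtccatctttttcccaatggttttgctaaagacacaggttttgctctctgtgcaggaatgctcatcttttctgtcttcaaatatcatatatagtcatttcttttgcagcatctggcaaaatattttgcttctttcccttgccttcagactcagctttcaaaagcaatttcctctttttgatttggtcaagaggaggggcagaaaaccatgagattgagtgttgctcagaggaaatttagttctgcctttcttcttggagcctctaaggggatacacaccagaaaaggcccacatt
Klra8: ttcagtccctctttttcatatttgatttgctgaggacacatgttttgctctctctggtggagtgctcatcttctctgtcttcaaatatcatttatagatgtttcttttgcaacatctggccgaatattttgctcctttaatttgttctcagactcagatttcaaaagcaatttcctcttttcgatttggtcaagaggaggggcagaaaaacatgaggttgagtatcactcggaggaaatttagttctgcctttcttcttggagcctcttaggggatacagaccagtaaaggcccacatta
Klra7: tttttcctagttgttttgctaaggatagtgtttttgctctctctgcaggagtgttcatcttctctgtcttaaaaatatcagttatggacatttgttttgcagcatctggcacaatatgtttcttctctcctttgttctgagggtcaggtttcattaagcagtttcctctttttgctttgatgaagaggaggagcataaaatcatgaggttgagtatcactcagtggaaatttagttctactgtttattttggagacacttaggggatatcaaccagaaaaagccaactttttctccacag

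In a global alignment, Klra4 and Klra8 were identical in 86.0% of columns, whereas Klra7 was identical to them in 73.7% and 74.3%. The order depends on the start, since RefSeq gives another start for Klra8, with 57.7% identity to Klra4, and another for Klra7, with 46.6% identity to Klra4 and 46.0% to the Klra8 window shown. The Runx motif TGTGGT, searched on both strands, occurs in 16.8% of 32851 promoter windows and in those of Ncr1, Klrb1c, Klrk1, Klrc1 and Klrc2 and in 1 of the 2 windows of Klre1, but in no window of Klra4, Klra7 or Klra8. The T-box motif GGTGTGA, found in 3.98% of windows, occurs in none of the members' windows. These are matches of letters in a window, not sites. Windows were found for 9 of the 10 members. Klrd1 had none.

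Klrc1 was found less often with the Ly49 members, with separate intervals for Klra4 and Klra8. Klra4 was found in 28 of the 128 NK-like barcodes with Klrc1 (21.9%) and in 41.0% of the 251 without it (34.9 to 47.4%), and Klra8 in 21.1% (14.4 to 29.2%) and 38.2% (32.2 to 44.6%). Depth was close, at medians of 5833.5 and 5630 UMIs. These were the 2 pairs of 45 in which the interval with one gene lay wholly below the interval without it, and 8 pairs lay wholly above. Of the 8, 4 joined Klre1, a gene of the lymphoid rule, to Klrd1 or a Ly49 member, 1 joined Klrk1 to Klrc2, and 3 joined the Ly49 members to each other. Depth was less close for these, with medians of 5830 UMIs with Klre1 and 4878 without it. The medians were 5923 and 4705 for Klrk1 and 6303 and 5201 for Klra7. Klre1 was found in 66.7% of cluster 13, where Ly49 members were few, against 89.1% of cluster 6 and 91.5% of cluster 8. The pairs of Klre1 were not described within clusters, so the part of cluster in them was not tested. Within clusters 6 and 8, Klra8 was found in 43.8% with Klra7 (35.3 to 52.5%) and 38.0% without (30.4 to 46.0%), and those intervals overlapped. Pairs of other genes were not counted for comparison. In clusters 6 and 8 alone, Klra4 was found in 28.9% of barcodes with Klrc1 (20.1 to 39.0%) and 99 of 198 without (42.8 to 57.2%). The direction was the same in each larger library, with intervals that overlapped. The shares were 24.7% (16.2 to 35.0%) and 40.6% (33.0 to 48.5%) in suffix 1. In suffix 2 they were 16.2% (6.19 to 32.0%) and 41.5% (30.7 to 52.9%). Klra7, the inhibitory Ly49 member, was found in 40 of 128 barcodes with Klrc1 (31.2%) and 43.4% without (37.2 to 49.8%), and those intervals overlapped.

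**Figure D4:**
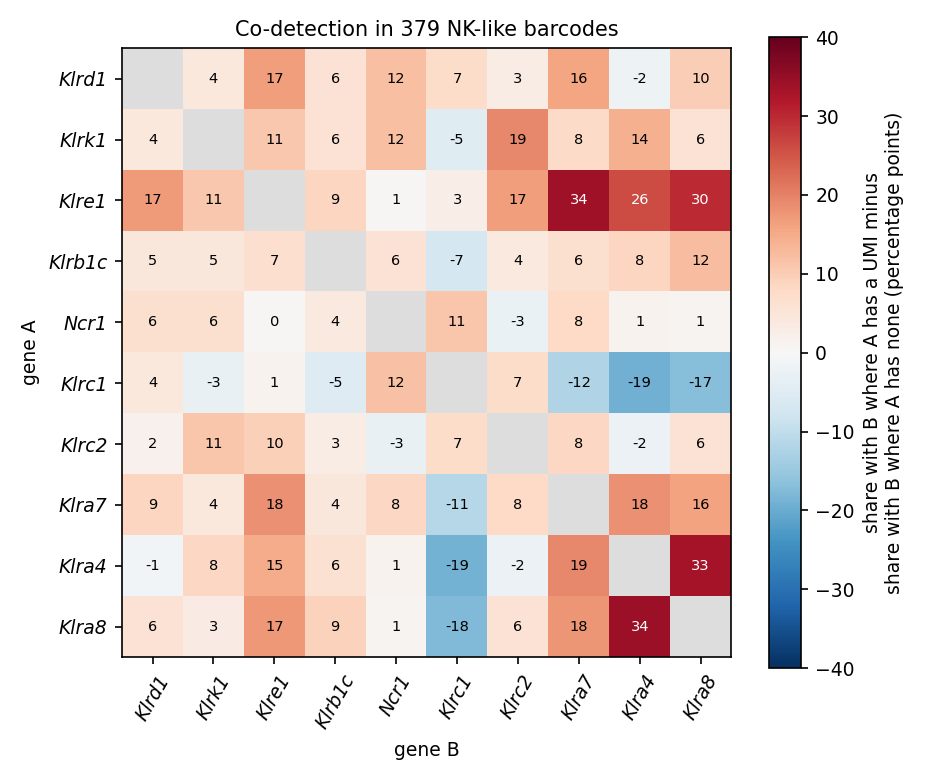
Difference, in percentage points, between the share of NK-like barcodes with gene B where gene A has a UMI and where it has none, for each pair of members (rows are gene A, columns gene B, and red is a higher share with gene A). The Klrc1 row and column are blue against Klra4, Klra7 and Klra8, and the highest values join Klra4 with Klra8 and Klre1 with the Ly49 members.

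Klrc1 and Klrc2 were found together in 49 NK-like barcodes. Klrc2 was found in 38.3% of those with Klrc1 (29.8 to 47.3%) and 31.1% of those without (25.4 to 37.2%), with intervals that overlapped. Of the 3′ windows of Klrc1, 21.7% also occur in Klrc2, and the part of shared sequence in their joint detection was not tested. Among NK-like barcodes, 70 held Klrd1 with Klrc1, 67 held Klrd1 with Klrc2, 42 held all 3 and 142 held Klrd1 alone. Klrd1 was present in 87.5% of NK-like barcodes with Klrc1 and 83.3% of those without. In T-like barcodes Klrd1 was found in 58.5% of the 325 with Klrc1 (52.9 to 63.9%) and 24.3% of the 1570 without it (22.2 to 26.5%), and 54.0% of barcodes with Klrd1 also held Klrk1 (49.8 to 58.2%) against 20.6% of those without (18.5 to 22.9%). Within the CD8 barcodes, Klrd1 was found in 59.9% with Klrc1 (53.8 to 65.7%) and 38.6% without (35.3 to 42.0%), at medians of 5246 and 4708 UMIs. For Klrk1 the values within CD8 barcodes were 54.2% (49.7 to 58.6%) and 25.2% (21.8 to 28.8%), with a median of 5149 UMIs where Klrd1 was found and 4674 where it was not.

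**Figure D5:**
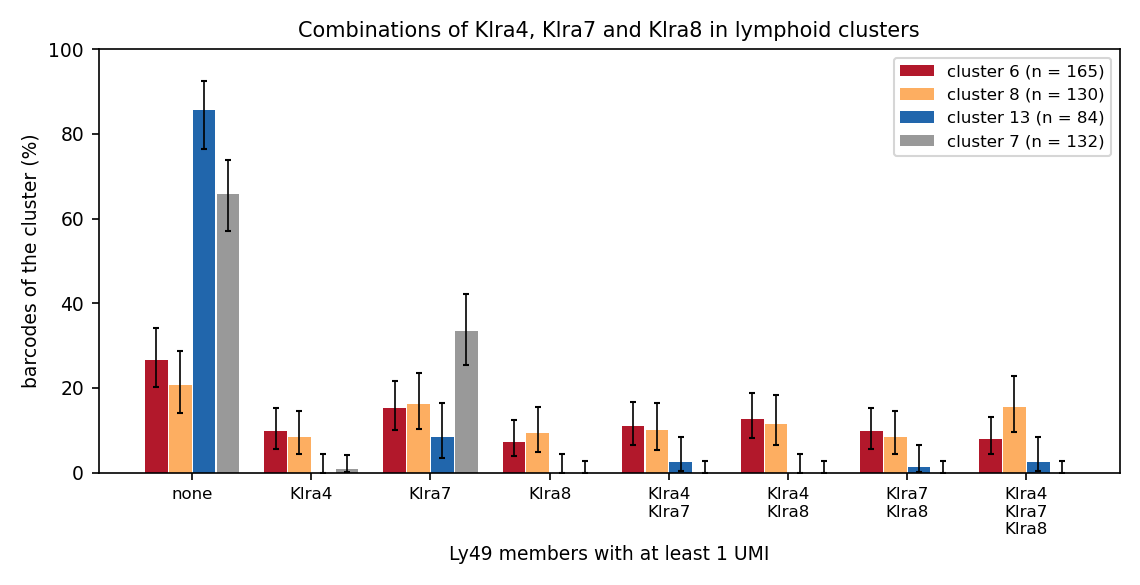
Share of the barcodes of each lymphoid cluster (vertical axis, percent) with each combination of Klra4, Klra7 and Klra8 (horizontal axis), with exact 95% intervals. Clusters 6 and 8 fill all 8 combinations, cluster 13 is mostly without any of the 3, and cluster 7 holds Klra7 alone in 33.3%.

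Beyond the members, 19 of 23 other NK receptor genes had enough UMIs to compare, and 8 were at least 4-fold higher in NK-like than in T-like barcodes and none at least 4-fold lower. Over all 11130 genes, 0.395% were higher and 0.35% lower by that size. The median of these 19 genes was 2.11-fold. The inhibitory Ly49 gene Klra9 (Ly49I) was 19.4-fold higher and was found in 35.1% of NK-like barcodes, and Klrb1b, an inhibitory relative of Klrb1c, 14.5-fold higher in 42.5%. Klri2, a partner of Klre1, was 11.6-fold higher in 35.6%, whereas the other partner Klri1 gave 3 UMIs in NK-like barcodes. Klrg1, a marker of mature NK cells, was found in 4.7% of NK-like barcodes. Some 3′ windows of Klra9 also occur in Klra3, Klra8 or Klra10, and some of Klra3 in Klra9 or Klra10. Of the windows of Klrb1b, 14.0% also occur in Gm44511. The counts of Klra9, Klra3 and Klrb1b are therefore less certain than those of Klra4, Klra7 and Klra8.

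Of 16 adaptor and signalling genes, 3 were at least 4-fold higher in NK-like barcodes and 1 was lower, and the median fold was 1.0. The shares over all genes were 0.395% and 0.35%. Fcer1g was 29.4-fold higher, Tyrobp, which carries the signal of Klra4, Klra8 and Klrc2, 15.2-fold higher, and Sh2d1b1 8.22-fold higher. Tyrobp was found in 98.9% of NK-like and 44.6% of T-like barcodes, and it is also a gene of microglia, found in 99.3% of microglia-like barcodes and 32.5% of oligodendrocyte-like ones. Hcst, the adaptor of Klrk1, was at 557 CPM in NK-like and 744 CPM in T-like barcodes, a value of 0.75 on the scale of CPM plus 10. Lat, a scaffold of T cell receptor signalling, stood at 0.12 on that scale. Lat was a T cell marker and Fcer1g an NK marker in the naming of the clusters, so neither is an independent finding.

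Effector genes were compared on the same scale, and 5 of 21 were at least 4-fold higher in NK-like barcodes and 1 lower. Over all genes, 0.395% were higher and 0.35% lower by that size. Gzma was 65.1-fold, Irf8 23.9-fold, Xcl1 6.31-fold, Styk1 5.76-fold and Prf1 4.38-fold higher, and Cxcr6, a chemokine receptor of tissue-resident cells, stood at 0.17. Of 13 T lineage genes, 7 were at least 4-fold lower, namely Cd3d, Cd3e, Cd3g, Trac, Trbc2, Cd8a and Cd8b1. The first 5 of these belong to the lymphoid rule. The same 5 genes, Lat, Gzma, Prf1, Xcl1, Styk1 and Fcer1g had a part in naming the clusters. None of these genes of the rule or the naming is an independent finding.

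Of the ligand genes, H2-T23 and H2-K1 were found in most microglia-like barcodes. H2-T23, which encodes the ligand of CD94 with NKG2 receptors, was found in 80.7% of microglia-like barcodes, 67.8% of endothelial-like, 80.5% of NK-like, 13.2% of neuroblast-like, 9.8% of astrocyte-like and 7.4% of oligodendrocyte-like barcodes. H2-K1, of the class I molecules that the Ly49 family reads, was found in 96.2% of microglia-like and 29.0% of oligodendrocyte-like barcodes. Whether Klra4, Klra7 or Klra8 reads its product was not examined. Ligands of Klrk1 were scarce, with Ulbp1 in 1.7% of microglia-like barcodes, Raet1d in 0.2% and H60b in 0.7% of T-like barcodes. None of the 12 ligand genes with enough UMIs reached 4-fold between NK-like and T-like barcodes. Over all genes only 0.395% were higher and 0.35% lower by that size, so this is not a result about ligands.

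Outside the lymphoid rule, 576 of 28563 barcodes held a member (2.02%, 1.86 to 2.19%), and 127 of these held 2 or more. Barcodes that clustered with NK cells but missed the rule made up 93, of which 80 held a member (86.0%, 77.3 to 92.3%). Without the NK-like and T-like classes of the whole data set the share was 1.62%. Oligodendrocyte-like barcodes, which should lack these receptors, held a member in 71 of 9537 (0.744%, 0.582 to 0.938%), never more than 1 member per barcode, and served as a background at a median of 6076 UMIs. Nearly all of these barcodes held single UMIs, but 1 held 9 UMIs of Klrk1. The share outside the rule was 2.96% in suffix 1, 2.56% in suffix 2 and 0.543% in suffix 3, the library with few lymphoid barcodes.

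Klrd1 and Klrk1 were also frequent in a group of myeloid barcodes. Cluster 24 of the whole data set was named monocyte/dendritic-like and was led by the MHC class II genes H2-Eb1, H2-Aa and H2-Ab1 with Cd74 and Cd209a. Of its 181 barcodes outside the lymphoid rule, 69 held Klrd1 (38.1%, 31.0 to 45.6%) and 55 held Klrk1 (30.4%, 23.8 to 37.6%), at 248 and 114 CPM. Klre1 was found in 2, and Ncr1, Klrb1c, Klrc1, Klrc2, Klra4, Klra7 and Klra8 in none, which allows up to 1.66%. Nkg7, found in 98.4% of NK-like barcodes, was found in 0.552% of the cluster. Cd7, another of the NK markers, was found in 25 barcodes of the cluster (13.8%, 9.14 to 19.7%) at 71.8 CPM. It stood at 424 CPM in NK-like and 42.3 CPM in T-like barcodes. No barcode of the cluster was a called doublet. Klrd1 and Klrk1 occurred together in 38 barcodes. Klrk1 was found in 55.1% of barcodes with Klrd1 (42.6 to 67.1%) and 15.2% of those without (9.10 to 23.2%). This comparison is not free of depth, since barcodes with Klrd1 had a median of 8132 UMIs and those without 1361.5. Among the 81 barcodes of the cluster with at least 6000 UMIs, Klrd1 was found in 72.8% (61.8 to 82.1%) and Klrk1 in 49.4% (38.1 to 60.7%), against 92.4% and 91.3% of 172 NK-like barcodes of that depth.

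Klrd1 was found in the cluster in 35.7% of 84 barcodes of suffix 1, 37.1% of 89 of suffix 2 and 6 of the 8 of suffix 3. Depth was unequal, with medians of 1901, 3058 and 10539 UMIs in that order. In CPM Klrd1 stood at 253, 261 and 151, the last from 12 UMIs. The other monocyte/dendritic-like cluster, number 22 and led by Gpnmb and Lyz2, was deeper, with a median of 12984 UMIs, and held Klrd1 in 1 of 214 barcodes (0.467%) and Klrk1 in 7 (3.27%, 1.33 to 6.62%). The receptors Klrb1b and Klri2 were also found in cluster 24, in 8.84% and 3.87%, and the microglial gene C1qa in 65.2%. Of the adaptors, Tyrobp was found in 80.1% of it and Hcst in 10.5%. Tyrobp is expressed by myeloid cells in general.

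In microglia-like barcodes of all libraries together, Klrd1 and Klrb1c had intervals above the oligodendrocyte background. Klrd1 was found in 125 of 11092 (1.13%, 0.939 to 1.34%) against 19 of 9537 oligodendrocyte-like barcodes (0.199%, 0.120 to 0.311%), at median depths of 7221.5 and 6076 UMIs. It was found in 34 of 3286 microglia-like barcodes of suffix 1 (1.03%), 62 of 5765 of suffix 2 (1.08%) and 29 of 2041 of suffix 3 (1.42%), with overlapping intervals, whereas in oligodendrocyte-like barcodes it was found in 0.268%, 0.339% and 0.0267%. Nearly every positive microglia-like barcode held a single UMI, with 144 UMIs in all. Klrb1c was found in 0.316% of microglia-like barcodes (0.220 to 0.439%) and 0.0315% of oligodendrocyte-like ones (0.00649 to 0.0919%), with 0 of 2041 in suffix 3, which allows up to 0.147%. In suffix 1 its intervals overlapped, at 0.426% of microglia-like (0.233 to 0.714%) and 0.0892% of oligodendrocyte-like barcodes (0.0108 to 0.322%). Klrk1 was found in 0.307% and 0.126%, with intervals that overlapped. The remaining members were found in at most 0.126% of microglia-like barcodes. No member was found in mural-like, B-cell-like, fibroblast-like or erythroid-like barcodes outside the rule, groups of 32 to 269 barcodes.

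Genes most like each member were taken from the correlation of log2(CPM + 10) over 34 clusters of at least 50 barcodes, which share libraries and depth, so the values are descriptions. Only 1 of these clusters, of 504 barcodes, was named NK, and most others held few UMIs of the members. High values among genes of NK cells were therefore largely set in advance. Among members, the 45 pairs ranged from 0.66 to 0.99 with a median of 0.91. Klre1 and Klrc2 were each other's nearest gene (0.99). Klra4 and Klrb1c were nearest to Klra9 (0.99 each), Ncr1 was nearest to Klra8 (0.96), and Klra7 was nearest to Klre1 (0.99). The shared members had other neighbours, with Klrc1 nearest to Tbx21 (0.99), Klrk1 to P2ry10 (0.99) and Klrd1 to Cdh1 (0.97).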

How the data were processed

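Brain cells were profiled with 10x Genomics droplet sequencing. According to the study's methods and the submitters' processing notes, the authors mapped reads with Cell Ranger 3.1.0 (STAR, mm10), down-sampled reads to level the libraries, and deposited 1 matrix of raw UMI counts that pools 3 libraries told apart by barcode suffix. Their later Seurat 3.1.1 steps left no mark on the counts used here. The deposited gene symbols and barcode names were used as given, and 35 duplicated symbols were renamed.

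Barcodes with at least 1000 UMIs and at most 30% mt- counts were kept. Kept barcodes (2000 variable genes, 50 components, 20 neighbours, Leiden resolution 1, leidenalg 0.10.2) and lymphoid barcodes (1000, 20 and 15) were clustered without Klr genes and Ncr1. Clusters were named from marker lists. A lymphoid cluster stayed unnamed with under 3 markers, 25% or more called doublets, 6 or more of 10 leading genes highest in another class, or NK markers with a CD3 gene in 25% or more of barcodes. This naming was set after the data were seen. Doublets were called per library by the Scrublet method, rewritten for this work, and were counted, not removed. Of simulated pairs, 28.4% to 34.7% were above the threshold, so doublets remain among barcodes not called.

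Folds compare summed CPM plus 10 over genes with at least 10 UMIs. The script that computes the fold was checked on simulated counts. Libraries held 69270514 to 105957232 UMIs. With 1 unlabelled library per condition, no test was made. Depth limits detection, so a share counts barcodes with a UMI, not cells that express a gene. Members and lists were chosen with earlier results of these data known. Named were the members, the genes of 5 lists, and the nearest genes by correlation. Sequences came from GENCODE and RefSeq. Alternatives were the UMI minimum, mitochondrial limit, upper limits, doublets, libraries, thinning, lymphoid rule, detection threshold, resolution and fold scale.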

Additional observations from a re-analysis of the deposited data

How the results depend on the processing

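No paired analysis was possible because each condition has 1 library and the suffixes are not paired with conditions. The main values were 3419 lymphoid barcodes, a member in 58.3% of them, 2 or more of the 7 members outside the rule in 36.3%, a member in 2.02% of other barcodes, and 7 members at least 4-fold higher in NK-like barcodes. A UMI minimum of 500, a mitochondrial limit of 10%, upper limits at the mean plus 2 SD, leaving out called doublets, and lymphoid rules of 3 genes or without members left all the values they apply to inside the main interval or within 1.5 times the count. The rule without members held 3417 barcodes, so it was not the main rule with its members simply struck out. Such a rule would lose the 192 and 210 lymphoid barcodes with none or 1 of the 5 CD3 and T cell receptor genes. It was not run, so how far the values rest on the members in the rule is not shown. Without suffix 1 the first 4 values were 2057, 54.0%, 29.6% and 1.67%, without suffix 2 they were 1401, 64.6%, 46.3% and 1.64%, and without suffix 3 the share in other barcodes was 2.72%. Thinned to 1000 UMIs, the 3 shares were 32.4%, 10.5% and 0.735%, and requiring 2 UMIs they were 41.3%, 20.5% and 0.578%, since both lower detection by construction. Without the NK and T cell classes, an alternative chosen after seeing the data, the share in other barcodes was 1.62%. The number of members at least 4-fold higher ranged from 6 to 8 over all its alternatives, including the comparison with CD8 barcodes, which was also chosen after seeing the data. The share over all genes is given for the main comparison only. A T-like group with lymphoid cluster 7 added was not among these alternatives. Counts per barcode limit the less abundant members most, with Klrc2 at 1.42 UMIs per positive NK-like barcode.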
